A study of Mus musculus with 6 samples.

Results

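Transcripts of the ABL and SRC families of non-receptor tyrosine kinases were examined in 6 mouse cell lines positive for BCR-ABL, the fusion kinase of the Philadelphia chromosome. The 9 genes, Abl1, Abl2, Lyn, Fyn, Blk, Fgr, Lck, Src and Yes1, were picked by symbol from the 25965 rows of the deposited count table, and each had 1 row. Of these, 6 passed the filter on low counts and stand among the 10896 tested genes, while Fgr, Src and Yes1 did not pass. The WT group (WT1, WT2 and WT3) had received a control plasmid with Cas9 and GFP. The KO group (KO1, KO2 and KO3) had received the plasmid with guides against CDK6, a kinase that partners with D-type cyclins early in the cell cycle. All lines carried BCR-ABL, GFP-positive cells were plated as single cells, and loss of CDK6 protein had been checked by Western blot, per the labels. The labels name neither the parental line nor how BCR-ABL was introduced, and they do not say whether a library is 1 clone. They also do not say that libraries came from separate cultures, so p-values measure only the spread between these libraries.

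ABL1 and ABL2 are tyrosine kinases that regulate the actin cytoskeleton, and BCR-ABL is a constitutively active form of ABL1. SRC family kinases are anchored at the inner face of the membrane by lipid tails. They are held inactive by CSK, which phosphorylates their tail, and are released by the phosphatase CD45. In B cells LYN, FYN and BLK phosphorylate the B cell receptor, and LYN also starts inhibitory signals through SHP-1 and SHIP-1. BCR-ABL engages SRC family kinases in B-lineage leukaemia, and some ABL inhibitors bind both families.

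Total counts ran from 17859519 to 24108563 per library. Levels are given in CPM, counts per 1000000 of the library total after scaling by TMM (trimmed mean of M-values), and 3 counts corresponded to 0.125 to 0.165 CPM. All 13 B-lineage markers were above 3 counts in every library, with a summed level of 4297 to 5279 CPM. Library KO2 stood apart: 291 of the 10896 tested genes (2.67%) lay at least 5-fold below the lowest other library there, against 0 to 24 in each of the others. Cdk6 itself lay at 39.7 CPM in WT1, 45.6 in WT2 and 55.9 in WT3 and at 41.3 CPM in KO1, 75.0 in KO2 and 39.0 in KO3. Its RNA thus does not separate the groups, and KO and WT name the libraries as labelled wherever a direction is given.

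Promoter sequences are shown first because the kinases fell into steady, line-dependent and silent transcripts, and their start regions differed in CpG content. RefSeq (GRCm38.p6) gave 9 windows for 7 of the 9 genes, and each is read here as the 250 bases before an annotated start. Such a start need not be the outermost of its gene. Abl1 spans chromosome 2 from 31688244 to 31807093, but its windows begin at 31759689 and 31759923 and overlap. The Src window lies inside the span of the gene, and those of Abl2 and Fyn lie partly inside. Blk and Lyn were not matched. Lck has 2 start regions, both shown, and Fyn and Yes1 are shown as a steady and a silent member. The lines run 5′ to 3′ on the gene's strand, and capitals mark each CG dinucleotide. The windows are chr4:129573642-129573891 (minus strand), chr4:129558373-129558622 (minus strand), chr10:39369549-39369798 (plus strand) and chr5:32610921-32611170 (plus strand).
Lck, outer start: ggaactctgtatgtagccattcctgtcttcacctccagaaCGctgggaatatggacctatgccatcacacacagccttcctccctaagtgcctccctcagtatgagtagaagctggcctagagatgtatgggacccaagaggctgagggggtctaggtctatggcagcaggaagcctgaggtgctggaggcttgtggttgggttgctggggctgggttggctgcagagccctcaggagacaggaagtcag
Lck, inner start: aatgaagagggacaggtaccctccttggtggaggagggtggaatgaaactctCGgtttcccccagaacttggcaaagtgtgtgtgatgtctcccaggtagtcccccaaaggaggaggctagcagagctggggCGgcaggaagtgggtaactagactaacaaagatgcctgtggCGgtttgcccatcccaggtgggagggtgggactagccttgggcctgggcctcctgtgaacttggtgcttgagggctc
Fyn: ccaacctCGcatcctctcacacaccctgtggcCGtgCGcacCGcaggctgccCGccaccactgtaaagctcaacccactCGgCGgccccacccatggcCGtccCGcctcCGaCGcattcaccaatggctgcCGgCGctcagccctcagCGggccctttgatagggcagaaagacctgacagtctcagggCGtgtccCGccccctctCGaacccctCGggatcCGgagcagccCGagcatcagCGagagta
Yes1: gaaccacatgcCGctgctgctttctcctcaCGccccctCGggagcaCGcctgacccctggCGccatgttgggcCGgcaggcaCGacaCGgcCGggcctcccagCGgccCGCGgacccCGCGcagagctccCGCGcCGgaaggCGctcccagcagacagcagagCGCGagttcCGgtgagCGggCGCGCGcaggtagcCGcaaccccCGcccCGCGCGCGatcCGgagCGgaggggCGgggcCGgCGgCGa

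The Lck windows held 1 and 3 CG dinucleotides, the Fgr window 9 and the Fyn window 21. Abl1 had 16 and 19 in its windows, Abl2 25, Yes1 37 and Src 40, where the median of all 32851 windows was 6. The most CG-rich windows thus belonged to Src and Yes1, which were near 0 in these lines, and the poorest to Lck, which was expressed in 5 of 6. Motifs were searched on both strands. The EBF palindrome (TCCC and GGGA parted by any 2 bases) and the STAT element TTCNNNGAA had no match in the 9 windows, where 0.779% and 7.02% of all windows held one. The ETS core CCGGAA was found in the windows of Fgr and Yes1 (12.03% of all windows). The purine-rich ETS site GAGGAA was found in 1 window each of Abl1, Src and Lck (23.3%), at -174 to -169 before the outer start of Lck. The E-box CANNTG matched 5 of 9 windows (66.2% of all), at -63 to -58 before the inner start of Lck. No match of one motif overlapped a match of another in the Lck windows. These are letter matches only, chosen with the expression values known, and they say nothing about binding.

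Abl1 had the highest CPM of the 9 genes in every library, and it varied little. It lay at 771.0 CPM in WT1, 646.3 in WT2 and 715.7 in WT3 and at 797.3 CPM in KO1, 622.9 in KO2 and 763.2 in KO3. WT2 and KO2 were the lowest libraries of their groups, and the groups overlapped. The means were 711.0 ± 62.5 CPM (SD, n = 3) in the WT lines and 727.8 ± 92.5 CPM (SD, n = 3) in the KO lines. The log2 fold change of KO against WT was 0.03 ± 0.12 (SE; 95% interval -0.26 to 0.33), with an edgeR adjusted p of 0.947. By mean CPM Abl1 ranked at 134 of 10896 tested genes. Per length (CPM per kb of merged exons, used wherever genes are compared) its mean was 62.0, above 92.1% of the 9842 tested genes with a length.

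The counts are sums over a gene symbol, so reads of the fusion that align to Abl1 or Bcr cannot be told apart from those of the native genes. Abl1 (chromosome 2, 31688244 to 31807093) was set beside its neighbours. Per kb the means of the 6 nearest tested genes lay between 0.775 (Qrfp) and 41.8 (Exosc2, an exosome subunit), all below the lowest Abl1 library at 53.7. Bcr, the other gene of the fusion, lay at 270.1 CPM in WT1, 194.5 in WT2 and 244.6 in WT3 and at 323.6 CPM in KO1, 231.5 in KO2 and 260.2 in KO3. Its log2 fold change was 0.20 ± 0.17 (edgeR adjusted p = 0.736), and the groups overlapped. Per kb Abl1 was 1.74 to 2.35 times as high as Bcr, with a median of 2.04 over the 6 libraries, and with the longest transcript in place of merged exons the median was 3.12. KO1 was the highest library for both genes, while Bcr was lowest in WT2 and Abl1 in KO2.

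**Figure D1:**
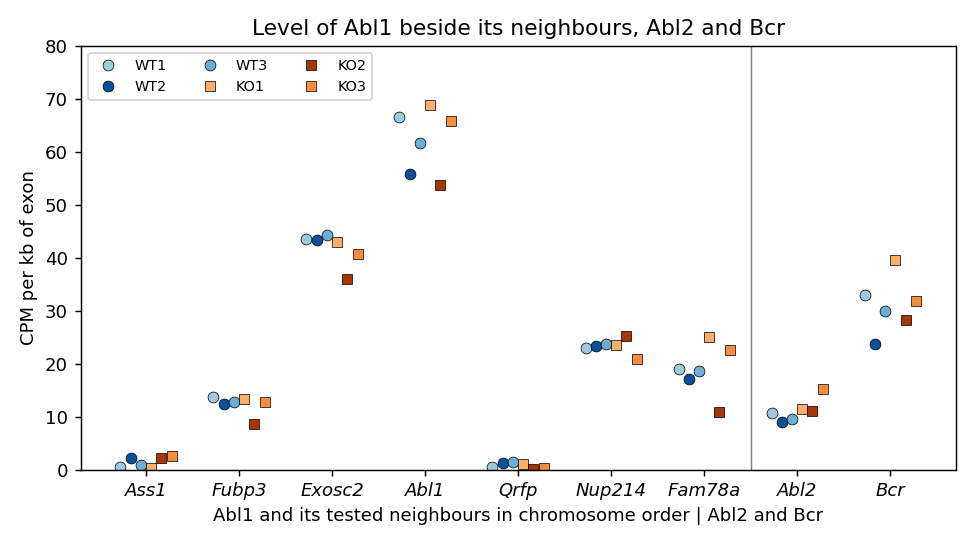
Level in CPM per kb of exon for Abl1 and its 3 nearest tested genes on each side in chromosome order, and to the right of the line for Abl2 and Bcr. Each point is 1 library, circles WT and squares KO; Abl1 lies at 53.7 to 68.8 and its neighbours have means of 0.775 to 41.8.

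Abl2, the paralog of Abl1, lay higher in every KO line, by little. It was at 116.0 CPM in WT1, 96.9 in WT2 and 102.8 in WT3 and at 123.3 CPM in KO1, 119.5 in KO2 and 163.4 in KO3. The groups did not overlap, although WT1 and KO2 were close, and KO3 stood above the other KO lines. The means were 105.2 ± 9.82 and 135.4 ± 24.3 CPM (SD, n = 3). The log2 fold change was 0.36 ± 0.15 (95% interval 0.00 to 0.73). It did not pass the test over all genes (edgeR adjusted p = 0.529), and a two-sided exact permutation test of log2 CPM gave 0.1, the smallest p that 3 against 3 libraries allow. Among all tested genes 8.53% had every KO library above every WT library, and 19.6% had groups that did not overlap in either direction. Per kb Abl1 exceeded Abl2 by 4.35 to 6.48 times, with the lowest ratios in KO3 (4.35) and KO2 (4.85). The size of this ratio depends on the length used, since division by the longest transcript gave 7.49 to 11.2 times, again lowest in KO3 and KO2.

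Lyn and Fyn were the main SRC family transcripts that all lines shared. Lyn (chromosome 4, 3678068 to 3791612), the kinase that both drives and restrains B cell receptor signals, lay at 136.2 CPM in WT1, 148.5 in WT2 and 136.2 in WT3. In KO1, KO2 and KO3 it was at 152.5, 186.8 and 101.3 CPM. The 3 WT lines were close together, and the KO lines held both the highest and the lowest value. The means were 140.3 ± 7.10 CPM in the WT lines and 146.9 ± 43.1 CPM in the KO lines (SD, n = 3). The log2 fold change was 0.07 ± 0.22 (95% interval -0.48 to 0.62, edgeR adjusted p = 0.943), and it was -0.14 without KO2.

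Fyn, which acts in T and B cell receptor signalling, lay at 144.6 CPM in WT1, 137.9 in WT2 and 150.8 in WT3 and at 125.4 CPM in KO1, 106.5 in KO2 and 137.6 in KO3. Every KO library was lower than every WT library, KO3 only just. With scaling by library totals alone the groups overlapped, since KO3 was then at 142.5 CPM and WT2 at 135.8. Of all tested genes 11% had every KO library below every WT library, and 8.68% had with totals alone. The means were 144.4 ± 6.46 and 123.2 ± 15.6 CPM (SD, n = 3), with a log2 fold change of -0.23 ± 0.11 (95% interval -0.49 to 0.03). This did not pass the test (edgeR adjusted p = 0.555, exact permutation p = 0.1). Per kb Lyn ranged from 24.9 to 45.9 and Fyn from 24.4 to 34.6, so their order differed between lines: Lyn was above Fyn in WT1, WT2, KO1 and KO2 and below it in WT3 and KO3. In WT1 both were nearly level, and there Fyn was the higher with the longest transcript or with no division by length.

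Lck, the kinase that starts T cell receptor signals, was expressed in 5 lines and nearly absent in KO2. It lay at 64.8 CPM in WT1, 67.5 in WT2 and 64.9 in WT3 and at 80.2 CPM in KO1, 0.410 in KO2 and 46.4 in KO3. The KO2 value rests on 8 counts (95% exact Poisson interval 0.177 to 0.807 CPM, counting error only). KO3, the next lowest library, was 113 times as high (57.3 to 263). KO1 lay above and KO3 below all 3 WT lines, so the groups overlapped even without KO2. The means were 65.7 ± 1.52 CPM in the WT lines and 42.4 ± 40.1 CPM in the KO lines (SD, n = 3). The log2 fold change was -0.63 ± 1.29 (95% interval -3.82 to 2.55, edgeR adjusted p = 0.896, exact permutation p = 0.4). Without KO2 it was -0.05, and limma-voom gave -2.49 and the fit with a replicate block -1.51, none of which passed. Lck was 1 of the 291 genes at least 5-fold below all other libraries in KO2 (2.67% of tested genes).

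The genes around Lck did not share the low value of KO2. Lck lies on chromosome 4 from 129548344 to 129573641. Against the median of WT1, WT3, KO1 and KO3, Lck in KO2 had a log2 ratio of -7.31, while its 6 nearest tested neighbours ran from -0.44 (Marcksl1) to 0.62 (Iqcc). Hdac1, a histone deacetylase on one side, lay at 59.2 CPM in KO2 and at 57.2 to 66.5 CPM in the other libraries. Eif3i, a translation initiation factor on the other side, lay at 291.8 CPM in KO2 and at 268.4 to 332.3 CPM elsewhere.

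T cell markers were checked because Lck is best known from T cells. Cd3e, Cd4, Cd8a, Cd8b1, Bcl11b and Thy1 were at 0 in all libraries, and 7 of the 12 T cell markers never exceeded 3 counts. The summed level of the list was 166.2 to 213.3 CPM in WT and 162.8 to 271.3 CPM in KO, most of it Cd2, which B-lineage cells can also express. Its highest value was that of KO2, the line with the least Lck, where Tcf7, a T cell factor, stood at 29.8 CPM. The part of other cells in the Lck values was not tested, and in bulk RNA fewer cells with Lck and less Lck per cell cannot be told apart.

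Blk, a SRC family kinase largely restricted to B cells, was high in 1 line, WT2. It lay at 10.7 CPM in WT1, 174.8 in WT2 and 15.8 in WT3 and at 8.18 CPM in KO1, 22.2 in KO2 and 12.8 in KO3. The value of WT2 was 7.86 times that of KO2, the next highest (95% exact binomial interval 7.11 to 8.71, counting error only). The other WT lines lay within the range of the KO lines. The means were 67.1 ± 93.3 CPM in the WT lines and 14.4 ± 7.16 CPM in the KO lines (SD, n = 3). The log2 fold change of -2.22 ± 1.17 (95% interval -5.12 to 0.69, edgeR adjusted p = 0.590, exact permutation p = 0.6) came with WT2, since it was 0.13 without that library. It was -1.20 with a replicate block and -1.11 in limma-voom.

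In WT2 only 2 of the 10896 tested genes (0.0184%) lay at least 5-fold above every other library. They were Blk and Plscr1, a phospholipid scramblase, which lay at 9.11 CPM in WT2 and at 0.236 to 1.32 CPM in the others; Plscr1 was named after its values were seen. The neighbours of Blk (chromosome 14, 63372837 to 63417187) did not share the high value. The log2 ratio of WT2 to the median of WT1, WT3, KO1 and KO3 was 3.90 for Blk and between -0.55 (Wdfy2) and 0.18 (Pinx1) for the 6 nearest tested genes. B-lineage markers summed to 4974 CPM in WT2 against 4710 and 4789 CPM in the other WT lines.

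**Figure D2:**
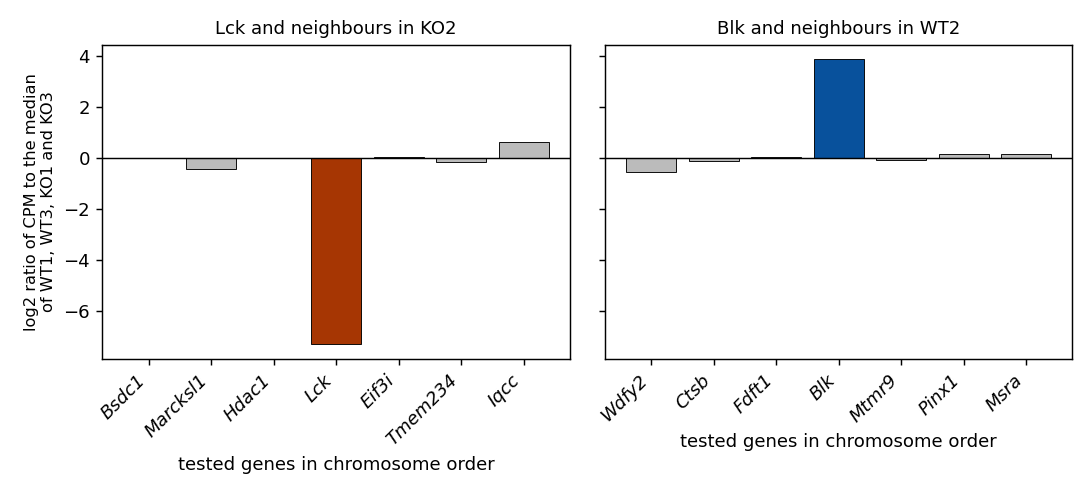
Log2 ratio of CPM to the median of WT1, WT3, KO1 and KO3 for Lck and its neighbours in KO2 (left) and for Blk and its neighbours in WT2 (right), in chromosome order. Each bar is 1 gene in 1 library; Lck is at -7.31 and Blk at 3.90, and the grey neighbours lie between -0.55 and 0.62.

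Src, Fgr and Yes1 were at or near the limit of detection. Src, the founding member, had 8 counts in WT1, 5 in WT2, 6 in WT3, 5 in KO1, 3 in KO2 and 3 in KO3, or 0.142 to 0.334 CPM. Counting intervals of all 6 libraries overlapped, and an exact permutation test of log2 CPM gave p = 0.2. Fgr, a kinase of myeloid cells, had 14 counts in WT2 and 10 in KO2 and 0 in each of the other 4 libraries, where 3 counts would be 0.125 to 0.165 CPM. At 0.745 and 0.512 CPM in WT2 and KO2, it did not divide the lines by genotype. Yes1, a widely expressed member, had a single count, in KO3. No fold change is given for these 3 genes.

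Fgr was read beside the myeloid markers. Of 12 markers, 6 never exceeded 3 counts, and Elane, Emr1 (now Adgre1), S100a8 and S100a9 were at 0 in all libraries. The list summed to 137.6 CPM in WT2 and 138.5 CPM in KO2, within the 87.8 to 153.8 CPM of the other libraries. Most of this was Sfpi1 (now Spi1), a factor that B cells also express, at 102.0 CPM in WT2 and 115.1 CPM in KO2. Lyz2, a lysozyme of myeloid cells, did not follow Fgr: it lay at 27.2 to 38.9 CPM in the WT lines and 12.2 to 15.8 CPM in the KO lines (log2 fold change -1.27 ± 0.19, edgeR adjusted p = 0.479). The part of myeloid cells in the Fgr values was not tested. Frk, Ptk6 and Srms, SRC-related kinases found mainly in epithelia, were at 0 throughout.

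**Figure D3:**
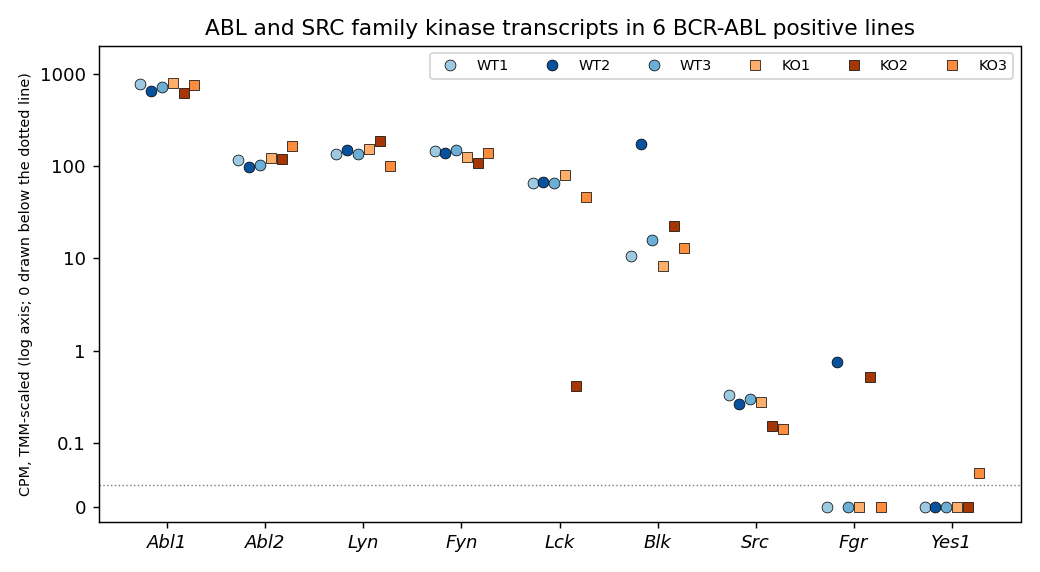
CPM of the 9 kinase genes in each library on a log axis, with zeros drawn below the dotted line. Circles are WT and squares KO lines; Abl1, Abl2, Lyn and Fyn vary by at most 1.85-fold, Lck is at 0.410 in KO2 and Blk at 174.8 in WT2.

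Over all lines the per-kb order of medians was Abl1 (63.8), Lyn (34.95), Fyn (31.6), Lck (22.1), Abl2 (10.9), Blk (5.30), Src (0.0619), and then Fgr and Yes1, each with a median of 0. The ranges of Lyn and Fyn overlapped, as did those of Lck and both of them, while Abl1 lay above all others in 5 libraries. In WT2 Blk was at 64.8 and Abl1 at 55.7 per kb, an order that turned with the longest transcript, which gave 75.1 for Blk and 102.2 for Abl1.

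The share of each kinase in the summed per-kb level of the 7 SRC family genes shows how differently the lines were composed. In WT1 Lyn, Fyn, Lck and Blk made up 36.1%, 35.7%, 23.8% and 4.27%. The shares were close to these in WT3, at 34.8%, 36.0%, 23.1% and 6.09%, and in KO1, at 38.7%, 29.7%, 28.3% and 3.14%. In WT2 Blk was the largest at 41.5%, ahead of Lyn at 23.4%, Fyn at 20.2% and Lck at 14.8%. In KO2 Lyn held 58.2%, Fyn 31.0%, Blk 10.5% and Lck 0.177%. In KO3 Fyn led with 40.9%, as it also led in WT3, ahead of Lyn at 32.3%, Lck at 20.6% and Blk at 6.16%. Src, Fgr and Yes1 were below 0.2% each in every library. The summed level was highest in WT2 at 156.1 per kb and lay at 77.0 to 96.7 in the other lines.

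**Figure D4:**
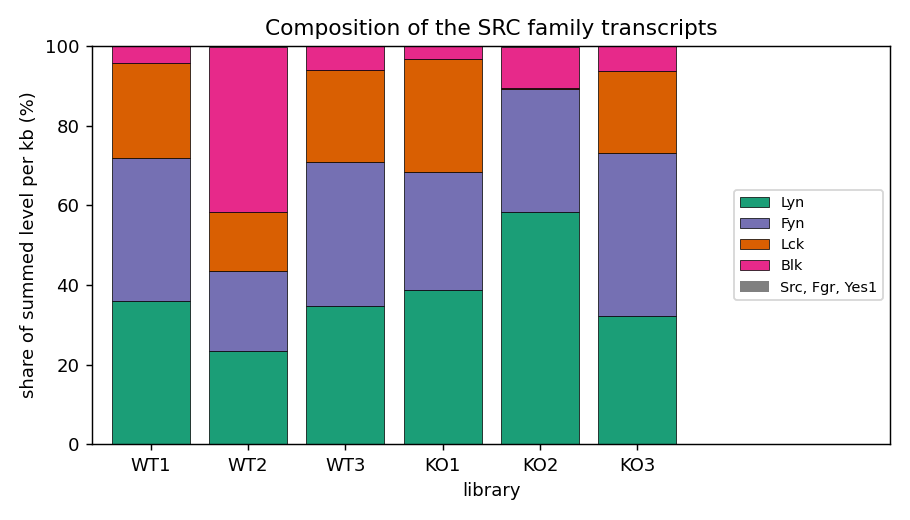
Share of each SRC family kinase in the summed level per kb, 1 bar per library, in percent. Blk takes 41.5% in WT2 and Lyn 58.2% in KO2, where Lck is at 0.177%; Src, Fgr and Yes1 together are too small to see.

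The comparison of KO with WT asked whether the kinases changed with loss of CDK6. None of the 6 tested members passed edgeR's quasi-likelihood test at an adjusted p of 0.05, and 0 of all 10896 tested genes (0%) did. Without adjustment 1 member, Abl2, and 9.45% of all tested genes had an edgeR p under 0.05. DESeq2 called 218 of the 11212 genes with an adjusted p (1.94%), and 0 members. It gave Blk, Fgr, Src and Yes1 no adjusted p, so these members were not assessed there. The intervals of Abl1, Abl2, Lyn and Fyn lay within -0.49 and 0.73 on the log2 scale. Those of Lck (-3.82 to 2.55) and Blk (-5.12 to 0.69) were far wider, each with 1 library far from the others. A fall of several log2 units in either gene lay within them.

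**Figure D5:**
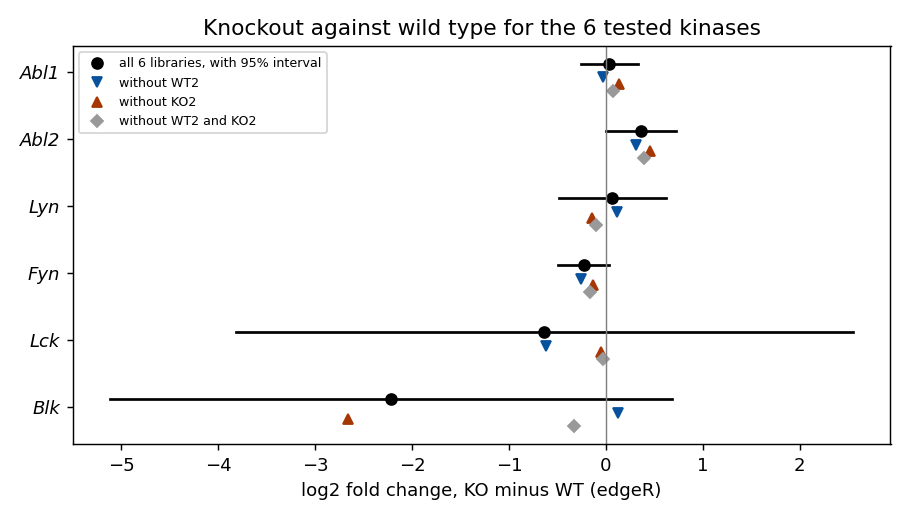
Log2 fold change of KO against WT by edgeR for the 6 tested members, black points with 95% intervals over all 6 libraries and coloured markers without WT2, without KO2 or without both. The interval of Blk runs from -5.12 to 0.69, and its value without WT2 is 0.13.

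The kinases' regulators and partners were read from lists of 110 genes, 88 of them tested. For groups that do not overlap, the shares over all tested genes are those given above: 8.53% with every KO library above, 11% with every KO library below and 19.6% in either direction. In edgeR 0 of the 88 passed, with 0 to 2 genes of each list under 0.05 before adjustment, and 1 passed in DESeq2. Among the 20 tested SRC kinase regulators the median log2 fold change was 0.05, with 12 above 0 and 8 below, where all tested genes had a median of 0.01. Without KO2 this median was -0.05. Csk, named for its role as the tail kinase, lay at 418.7 to 483.3 CPM in WT and 407.5 to 449.5 CPM in KO. Ptpn18, a phosphatase, was the 1 of 20 regulators whose groups did not overlap (19.6% of all tested genes). It lay at 106.7 ± 6.02 CPM in the WT lines and 73.7 ± 18.1 CPM in the KO lines (log2 fold change -0.53 ± 0.18, edgeR adjusted p = 0.495). Ptpre, a receptor-type phosphatase with a log2 fold change of 2.37 ± 1.10, was at 24.4 CPM in KO2 and at most 4.23 CPM elsewhere. Sla (0.38 ± 0.23), an adaptor that dampens receptor signals, and Lime1 (0.35 ± 0.22), a membrane adaptor that binds CSK, had overlapping groups. DESeq2 called Lime1 higher without KO2 (adjusted p = 0.0133) but not without WT2 and KO2 (adjusted p = 0.126).

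The 15 tested ABL regulators and substrates had a median of 0.05, with 8 above 0, and a median of -0.10 without KO2. Prdx1, a peroxiredoxin, lay at 421.0 CPM in WT1, 424.6 in WT2 and 430.6 in WT3 and at 354.5 CPM in KO1, 342.4 in KO2 and 303.0 in KO3. Every KO line was lower than every WT line, with a log2 fold change of -0.35 ± 0.07. It did not pass edgeR (adjusted p = 0.479) and was the 1 list gene that DESeq2 called lower over all 6 libraries (adjusted p = 0.00683). Without KO2 its DESeq2 adjusted p was 0.00209, and without WT2 and KO2 it was 0.0224. Nck1, an adaptor of the actin machinery, lay at 17.0 ± 1.64 and 23.5 ± 4.16 CPM (0.47 ± 0.17, edgeR adjusted p = 0.507). Rad9 (now Rad9a), a checkpoint protein, had a log2 fold change of 0.27, and Pstpip1, a cytoskeletal adaptor, one of -0.21.

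The 26 tested BCR-ABL signalling partners had a median of 0.11, with 19 above 0 and 7 below. That sign rested on KO2: the median was -0.11 without it and -0.03 without WT2 and KO2. In 4 of the 26 every KO library was lower than every WT library, as in 11% of all tested genes: Grb2, an adaptor, Ppp2ca (-0.16 ± 0.06), the catalytic subunit of phosphatase PP2A, Set (-0.23 ± 0.10), an inhibitor of that phosphatase, and Hras1 (now Hras; -0.18 ± 0.08). Values in parentheses are log2 fold changes with SE. Gab2, an adaptor recruited to BCR-ABL through GRB2, lay at 55.2 ± 2.90 CPM in the WT lines and 69.0 ± 11.01 CPM in the KO lines (0.32 ± 0.13, edgeR adjusted p = 0.529). The 14 tested B cell receptor partners had a median of 0.03, and of -0.13 without KO2. Cd81 (-0.33 ± 0.14), Cd79b (-0.17 ± 0.09), Siglecg (0.15 ± 0.11) and Cd22 (-0.84 ± 0.62) had the smallest p-values there, and only Cd81 had groups that did not overlap. Cd22, an inhibitory receptor that LYN phosphorylates, ranged from 11.3 CPM in KO1 to 88.1 CPM in WT2.

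Of the SYK and TEC family kinases, which act just downstream of SRC kinases, 4 of 7 were tested. Syk lay at 384.8 ± 4.10 CPM in the WT lines and 365.9 ± 58.0 CPM in the KO lines, and Btk at 295.4 ± 25.2 and 303.0 ± 64.7 CPM. Tec was at 77.9 CPM in KO2 and at 30.3 to 39.8 CPM elsewhere. Zap70, the relative of Syk in T cells, was at 2.66 CPM in WT2 and 4.61 CPM in KO2 and at most 0.148 CPM in the other 4. Txk and Bmx were at 0.

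Of 11 substrates of SRC, most but not all of them adhesion proteins, 9 were tested, with a median of 0.09. This sign did not hold either, with -0.20 without KO2, -0.14 in limma-voom and -0.11 with a replicate block. Pxn, the focal adhesion scaffold paxillin, lay at 133.4 CPM in WT1, 110.5 in WT2 and 140.8 in WT3 and at 94.3 CPM in KO1, 58.7 in KO2 and 89.0 in KO3. Every KO line was lower than every WT line, and the log2 fold change was -0.67 ± 0.20 (edgeR adjusted p = 0.482, DESeq2 adjusted p = 0.0939). DESeq2 called it lower without KO2 (adjusted p = 0.0123) and without WT2 and KO2 (adjusted p = 1.11e-05). Vcl, vinculin, was not called over all 6 libraries (edgeR adjusted p = 0.558, DESeq2 adjusted p = 0.482). DESeq2 called Vcl lower only in the same fits without libraries (adjusted p = 0.000297 and 0.000101). Its KO2 value of 128.3 CPM lay within the WT range of 121.1 to 140.0 CPM. Stat3 (log2 fold change 0.51 ± 0.27) and Khdrbs1 (-0.14 ± 0.10) had overlapping groups. Of 12 kinases bound by ABL inhibitors 6 were tested, and Ripk2 (log2 fold change 0.40 ± 0.15) had every KO library above every WT library. Kit, the stem cell factor receptor, lay at 13.0 CPM in KO1 and at 1.32 to 2.09 CPM in the other 5 libraries. It was 1 of 4 tested genes at least 5-fold above all other libraries in KO1 (0.0367%), another being Itgam, a myeloid marker, at 28.9 CPM. The 12 myeloid markers together summed to 132.3 CPM in KO1, within the range of the other libraries, and Lyz2 was lowest there. The part of other cells in the Kit value was not tested.

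Of the 88 tested list genes, 3 lay at least 5-fold below every other library in KO2 (3.41%), as Lck did, against 2.67% of all tested genes. These were Gab1, an adaptor, Ptk2, the focal adhesion kinase FAK, and Sla2, an adaptor. Ptk2 lay at 0.102 CPM in KO2 and at 37.9 to 61.1 CPM in the other libraries. KO2 was the highest library for 40 list genes (45.5%) and the lowest for 20 (22.7%), where it was the highest for 31.0% and the lowest for 33.6% of all tested genes.

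The genes whose pattern over the 6 libraries was most like a member's were taken by Pearson's r of log2 CPM among 9293 genes whose mean reached 5 CPM. With 6 points that share depth and library, high values arise among so many genes, and r is a description only. Abl1 was followed by Rnf170 (r = 0.997), Bst2 (0.996) and Kifap3 (0.989), Abl2 by Rnf214 (0.994), Tmem87a (0.992) and Bcl2l2 (0.989), and Lyn by Ccdc134 (0.993), Zc3h4 (0.99) and Igtp (0.987). Fyn was followed by Rfx2 (0.995), Polr2m (0.991) and 2410004B18Rik (0.988), and Blk by Cuta (0.986), Srm (0.981) and Pgk1 (0.976). The Lck partners Pycard, Nek6 and Pdzd4 (each 0.998) were also low in KO2, at 0, 2.71 and 0 CPM. Without KO2 their r with Lck was 0.81, 0.836 and 0.706.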

How the data were processed

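Per the labels' protocols, RNA of 6 lines was extracted and made into TruSeq libraries. The deposited table holds raw counts per gene symbol, which the authors left without normalization. The submitters' processing notes name Trim Galore, STAR, DESeq2 and GRCm38. The sources used here give no versions, roles, counting program, annotation or strand setting, so overlapping and antisense genes, and fusion and native transcripts, could not be told apart. Reads without molecular identifiers are not independent molecules, so intervals cover counting error only.

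Members, lists and tests were chosen with earlier results of these data known. Genes were filtered by filterByExpr and tested with edgeR 4.0.16 in R 4.3.3 (TMM, robust quasi-likelihood F test over all 6 libraries, Benjamini-Hochberg adjusted p under 0.05, two-sided), and checked on simulated data. Single members were also compared by exact permutation of log2 CPM. Ratios of libraries used a floor of 3 counts. Exon lengths came from GENCODE vM21 and positions from RefSeq, both GRCm38. Of the pathway and marker list genes 5 matched by synonym and 1 had no row. Named were all members, Cdk6, Bcr, up to 4 genes per list with the smallest p (all in lists of at most 7, some of them not reported here), the 3 most similar genes per member and 3 tested neighbours per side of Abl1. The neighbours of Lck and Blk, the motifs and the 5-fold criterion were added with the values known. So were the longest-transcript ratios of Abl1, and the genes Csk, Grb2, Lyz2, Mapk14, Ptk2, Gab1, Sla2, Plscr1, Itgam, Cd72, Ctnnd1, Dok1 and Dok2.

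Alternatives were RLE factors, library totals, DESeq2 1.42.0, limma-voom (limma 3.58.1), filters, no robust estimates, a replicate block and leaving out libraries. Same-numbered WT and KO libraries deviated together from their group means across genes (r = 0.326, 0.643 and 0.457 for numbers 1, 2 and 3, each over 0.1). On this ground the numbers were taken as pairs in the blocked fit. These values do not tell numbers 1 and 3 apart, since WT1 with KO3 had r = 0.406 and WT3 with KO1 had 0.361. Unlike-numbered pairs with WT2 or KO2 were negative, at -0.58 to -0.452. The labels do not say what a number marks.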

Additional observations from a re-analysis of the deposited data

How the results depend on the processing

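No member was called under any of the 17 alternatives, although DESeq2 over all 6 libraries gave Blk no adjusted p. limma-voom, run only over all 6 libraries, called 0 genes. edgeR called 0 genes in every setting, also whichever library was left out (0 to 0 genes). The number of genes at an unadjusted edgeR p under 0.05 then ran from 408 without WT3 to 2080 without KO2, against 1030 with all libraries. DESeq2 called 218 of 11212 genes with an adjusted p, 684 of 11496 without KO2 and 340 of 11752 without WT2 and KO2. Not all of the 110 list genes had an adjusted p, and Ptpn22 and Ctnnd1 had none over all 6 libraries. No share is therefore set beside those of all genes. Of the 110, DESeq2 called 1, 7 and 7 in the same fits. Those without KO2 were Lime1, called higher, and Ctnnd1, Dok1, Prdx1, Ptpn22, Pxn and Vcl, called lower. Those without WT2 and KO2 were Cd72, called higher, and Dok2, Epha2, Prdx1, Ptpn22, Pxn and Vcl, called lower. Over the 17 alternatives the adjusted p of the members ran from 0.0668 (Abl2, DESeq2 without KO2) to 0.997. With a replicate block 0 genes, 0 members and 0 list genes were called, so in edgeR the pairing changed no call; DESeq2 was run without the block. Abl2 kept its direction throughout, at 0.21 to 0.45 on the log2 scale, as did Fyn, at -0.32 to -0.13, and Lck, at -2.49 to -0.03. Lyn turned negative without KO2 (-0.14, and -0.14 in DESeq2) and without WT2 and KO2 (-0.10 in edgeR and -0.10 in DESeq2). Leaving out 1 library gave -0.033 to 0.14 for Abl1, negative without WT2, KO1 or KO3, -0.14 to 0.27 for Lyn and -2.72 to 0.13 for Blk, the last without WT2. The mean share of Lyn in the SRC family was 37.2% with merged exons, 36.0% with the longest transcript and 39.6% with no division by length. Of the 18 most similar genes 17 stayed with a prior count of 0.5 and 1 stayed without KO2; the cause was not tested. List medians moved by less than the spread between libraries in 102 of 119 fits; for kinases bound by ABL inhibitors the median of 0.22 was -0.05 without KO2. For the 3 genes with at most 14 counts in a library, depth sets the limit.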

Other observations

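Kinases that ABL inhibitors bind differed widely in level. Btk lay at 258.1 to 377.1 CPM and Mapk14, the stress kinase p38 alpha, at 116.8 to 203.1 CPM over the 6 libraries. Epha2, an ephrin receptor, lay at 3.84 CPM in WT1, 1.01 in WT2 and 5.89 in WT3 and at 1.37 CPM in KO1, 0 in KO2 and 0.756 in KO3. Its counts were 0 to 119 per library. DESeq2 called Epha2 lower without WT2 and KO2 (adjusted p = 0.0202), but not over all 6 libraries (adjusted p = 0.514). Csf1r, Pdgfra, Pdgfrb, Ddr1, Ddr2 and Ephb4 did not pass the filter on low counts.

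The phosphatase gene Ptpn22, which acts on SRC family kinases, lay at 26.2 CPM in WT1, 37.3 in WT2 and 25.9 in WT3, 12.1 in KO1, 113.2 in KO2 and 6.43 in KO3. DESeq2 called it lower without KO2 (log2 fold change -1.68 ± 0.34, adjusted p = 9.83e-05), whereas its edgeR log2 fold change over all 6 libraries was 0.56. Ptpn6, the gene for SHP-1, lay at 608.6 CPM in KO2 and at 217.5 to 375.1 CPM elsewhere, and Dok3, an inhibitory adaptor, at 395.6 CPM in KO2, 170.5 CPM in WT2 and 39.8 to 70.0 CPM in the others. These genes were named after their values were seen.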
